A study of Homo sapiens with 6 samples.

Results

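Occupancy by GSX2 was examined at 9 genes encoding transcription factors of striatal neurons, ISL1, EBF1, FOXP1, FOXP2, FOXP4, BCL11A, BCL11B, ZNF503 and IKZF1, out of 19974 protein-coding genes on chromosomes 1 to 22 and X. Each interval in the peak lists was given to the protein-coding gene whose RefSeq span (start to end of the gene, GRCh38.p14) lay nearest to its strongest summit. Intervals of different replicates that overlapped by at least 1 bp were joined into regions. This gave 47 regions at these genes, called member regions below, of 15743 regions in all. In each of the 47, the intervals of all contributing replicates pointed to the same gene.

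The cells were H9, an established human embryonic stem cell line, driven by small molecules and Activin A toward progenitors resembling those of the lateral ganglionic eminence. They carried the TRE3G 2xFLAG-GSX2 WT transgene, a wild-type GSX2 gene that doxycycline switches on and that carries the FLAG epitope in tandem, and received doxycycline at 100 ng/mL for 12 hours from day 10. The M2 antibody to FLAG was used on chromatin of day 10.5 in 3 replicates, which form the only group with values. The 3 input samples (2% of chromatin), which share the transgene and the doxycycline, were not analysed here. The antibody reads the induced protein, not the cell's own GSX2, and all samples derive from 1 line. The lists hold no RNA values, so the labelled cell type was not checked against marker genes.

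On chromosomes 1 to 22 and X, the lists contained 9859, 7471 and 9122 intervals in replicates 1, 2 and 3. Of these, 28, 21 and 25 lay at the 9 genes (0.284%, 0.281% and 0.274%). Depth is unknown, since the lists give no reads, and a missing peak may have been below the calling threshold. With 1 group there is no contrast, and an exact test over 3 paired values cannot give a p under 0.25, so recurrence and spread between replicates are given in place of tests. The labels number the replicates without saying whether each is a separate culture, so this spread may be partly technical.

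GSX2 is a homeodomain protein of progenitors in the ventricular zone of the lateral ganglionic eminence, and homeodomains of its class bind DNA words with a TAAT core. Neurons that leave this zone become the GABAergic projection neurons of the striatum, the medium spiny neurons that project to the globus pallidus and substantia nigra. As they mature they switch on zinc finger, forkhead, LIM homeodomain and EBF-type factors. The 9 genes encode factors of these types, and not all of them are limited to maturing neurons. Most of what is known of their striatal roles comes from the mouse.

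The promoters of the genes with a peak close by are shown here because they place the GSX2 regions against annotated starts. Only FOXP1, FOXP2 and ZNF503 had a member region with its summit within 2 kb of a start of the same gene in the RefSeq promoter table. For each of them 1 window is printed. A further FOXP1 start (chr3:71543557), with a summit 1039 bp downstream in replicate 3 alone, is not printed, and its window held no TAAT or ATTA. A further ZNF503 start (chr10:75401764), near the same peak as the printed one, is not printed either, and its window held 2 such words. Each window runs from 250 bases before the start to 50 after it, 5′ to 3′ on the gene's strand, with TAAT and ATTA in capitals. The peaks lie outside these windows, and sequence under the peaks was not used here.
FOXP2, chr7:114414565-114414864, plus strand: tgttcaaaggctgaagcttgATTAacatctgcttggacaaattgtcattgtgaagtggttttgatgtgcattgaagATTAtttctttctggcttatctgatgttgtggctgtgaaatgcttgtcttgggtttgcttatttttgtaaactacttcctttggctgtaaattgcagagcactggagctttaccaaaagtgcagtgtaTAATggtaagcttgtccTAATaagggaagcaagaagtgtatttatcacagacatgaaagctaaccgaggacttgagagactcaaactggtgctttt
FOXP1, chr3:71064875-71065174, minus strand: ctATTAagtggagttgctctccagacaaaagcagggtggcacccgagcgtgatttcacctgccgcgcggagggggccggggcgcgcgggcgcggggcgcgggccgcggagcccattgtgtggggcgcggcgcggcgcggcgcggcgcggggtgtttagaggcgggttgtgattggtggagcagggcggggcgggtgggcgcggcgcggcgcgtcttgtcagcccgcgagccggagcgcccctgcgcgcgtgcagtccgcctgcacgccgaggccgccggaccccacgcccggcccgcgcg
ZNF503, chr10:75401867-75402166, minus strand: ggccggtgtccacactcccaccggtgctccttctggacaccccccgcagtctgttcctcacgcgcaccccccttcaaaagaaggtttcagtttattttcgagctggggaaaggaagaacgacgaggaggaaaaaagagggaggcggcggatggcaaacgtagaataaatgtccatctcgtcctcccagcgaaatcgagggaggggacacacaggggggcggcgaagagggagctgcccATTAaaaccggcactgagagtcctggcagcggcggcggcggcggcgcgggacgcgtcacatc

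Across all 22 listed promoter windows of the 9 genes, 18 held TAAT or ATTA (81.8%), against 50.2% of the 35116 windows in the table. The 22 include 5 windows of BCL11A and 3 of IKZF1, genes with no GSX2 region, and most windows of each held TAAT or ATTA. The share thus does not describe genes with a GSX2 region alone. TAAT and ATTA are reverse complements, so the search covers both strands. Several windows of 1 gene overlap or lie close together, and the median GC content was 56.3% in the members' windows and 58.7% in all windows. The palindrome TAATTA, whose letters also count as TAAT and as ATTA, occurred in 1 window, that of EBF1 (4.55%, against 4.84% of all windows). TAAT followed by any 7 bases and a second TAAT, on either strand, was in 0 of the 22 windows and in 0.863% of all windows. No member region overlapped a listed promoter window of its own gene.

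Regions with a peak of all 3 replicates, called shared regions below, were found at 5 of the 9 genes, FOXP1, FOXP2, FOXP4, ISL1 and ZNF503, and at 12.5% of all protein-coding genes. Including regions of 1 or 2 replicates, 7 of the 9 had a region, against 33.1% of all genes. The 9 genes, and the gene lists used below, were chosen with earlier results of these data known. Comparisons of their counts with all genes are therefore descriptions, not tests. BCL11B and EBF1 had no shared region, and BCL11A and IKZF1 had no region at all. A gene's territory, meaning all positions to which no other protein-coding gene lies closer, is given beside these counts. Positions equally near to several genes, as in overlapping spans, count for each of them. Territories of the 9 genes had a median of 805 kb (159 to 1310 kb), against 56 kb for all genes. Among the 4546 genes with territories of at least 159 kb, 36.5% had a shared region. That limit is the shortest territory of the 9, so this share is not matched to their median of 805 kb.

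FOXP1 had 14 regions, EBF1 8, BCL11B 7, FOXP4 6, ISL1 5, FOXP2 4 and ZNF503 3. At FOXP1, 3 of the regions were shared, at FOXP2 and ZNF503 2 each, and at FOXP4 and ISL1 1 each. Per length of territory the order differed. FOXP4 had 35.1 regions per Mb and ZNF503 18.9, followed by FOXP1 with 14.2, EBF1 with 9.40, BCL11B with 5.34, ISL1 with 5.12 and FOXP2 with 4.97. Of the 6 FOXP4 regions, 4 came from replicate 1 alone. Without replicate 1, FOXP4 kept 2 regions, ZNF503 2 and FOXP1 13. With spans of any gene type, FOXP4 kept 3, ZNF503 1 and FOXP1 11. The order per Mb was not recomputed under these alternatives. The 9 genes together had 8.30 regions per Mb, of which 1.59 were shared, against 5.14 and 1.15 over all genes.

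**Figure D1:**
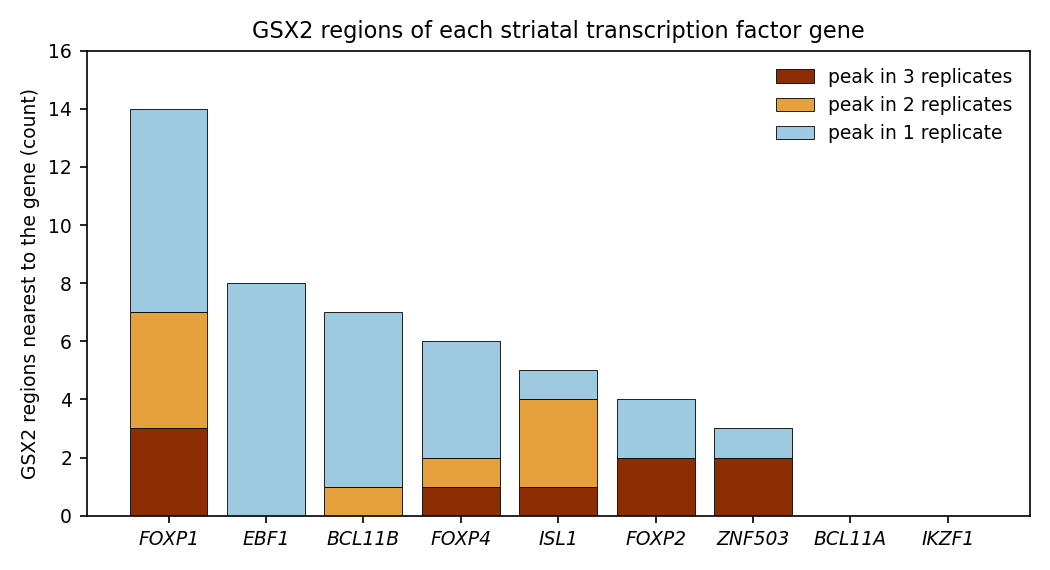
Number of GSX2 regions nearest to each of the 9 genes (y axis, count), with bars divided by how many of the 3 replicates had a peak in the region. FOXP1 has the tallest bar with 14 regions, EBF1 has 8 regions of 1 replicate each, and BCL11A and IKZF1 have none.

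FOXP1 and FOXP2 encode related forkhead repressors, both expressed by medium spiny neurons of the striatum, and FOXP2 is known from inherited speech disorders. The strongest FOXP1 region was inside the gene at chr3:71050863-71051222. It had fold enrichments of 8.64, 9.70 and 13.4 in replicates 1, 2 and 3 (10.6 ± 2.47, mean ± SD, n = 3), where fold enrichment is the authors' own value for each peak over the caller's background. Replicate 3 was the highest there. A second shared region, chr3:70981200-70982238, was 1039 bp wide and held 3 summits in at least 1 list, the only member region with several summits. Its strongest summits reached 8.52, 7.86 and 6.33 (7.57 ± 1.13). The third lay 132 kb beyond the 3′ end, at chr3:70822812-70823105, and was among the weakest shared regions of the whole data, with 4.12, 6.44 and 4.61 (5.05 ± 1.22, rank 3519 of 3537).

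Regions of FOXP1 were crowded in 1 part of the gene. In a stretch of 24.4 kb of a span of 629 kb, chr3:71041456-71065829, there were 5 regions, 1 of all replicates, 2 of 2 replicates and 2 of 1. One pair of summits was 0.636 kb apart. The stretch surrounds the internal start whose promoter is printed above, with a summit 816 bp upstream of that start in replicate 2 alone and another 1446 bp downstream in replicates 2 and 3. Of the 14 regions, 11 were inside the gene, and the other 3 lay beyond its 3′ end at 132 to 301 kb. A count of 14 or more was reached by 0.335% of all genes, and a territory as long as that of FOXP1 (988 kb) by 2.24%. The 7 regions of 1 replicate had fold enrichments of 4.49 to 7.40. When a shared region needed only the remaining 2 replicates, FOXP1 had 5 without replicate 1 and 4 without replicate 2 or without replicate 3.

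FOXP2 had 4 regions, all inside its span of 607 kb. The strongest, chr7:114100697-114101000, lay 14.5 kb from the outermost 5′ end and had fold enrichments of 11.4, 9.78 and 9.46 (10.2 ± 1.07). The second shared region, chr7:114413393-114413712, had 9.53, 8.40 and 8.07 (8.67 ± 0.767), and its summit was 1282 bp upstream of the start whose promoter is printed above. Both regions were highest in replicate 1, and in each list the first was the higher of the pair. Their summits in the 3 replicates were within 22 and 29 bp of each other. The 2 regions of 1 replicate had 4.93 and 5.25, below every value of the shared regions. FOXP2 also had 2 shared regions with peaks of −log10 q of at least 10.

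FOXP4, the forkhead paralog of FOXP1 and FOXP2 with broad expression in the developing brain, held the strongest region of the set. At chr6:41573319-41573615, inside the gene and 27.1 kb from its start, fold enrichments were 17.7, 15.8 and 15.2 (16.2 ± 1.28). These values were at or above 96.9%, 94.9% and 94.3% of the peaks of their own lists, and the region ranked 326 of 3537 shared regions. Its summits lay within 21 bp, the smallest spread among shared member regions. It was the only member region among the top 10% of all regions by mean fold enrichment, a limit of 10.9. Of the 5 other regions, 4 were found in replicate 1 alone, with 5.16 to 10.2, including 1 that lay 0.969 kb beyond the 3′ end. The remaining region, 57.7 kb upstream, had 5.70 in replicate 1 and 7.83 in replicate 3 and no peak in replicate 2. Without replicate 1, FOXP4 was left with 2 regions, and without replicate 2 it had 2 shared regions.

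ISL1 encodes a LIM homeodomain factor that, in the mouse, is needed for striatal neurons of the direct pathway. All 5 of its regions lay downstream of the gene, which is 11.3 kb long and has a territory of 976 kb. Only the closest, chr5:51400382-51400890, 6.03 kb beyond the 3′ end, was shared, with fold enrichments of 7.27, 8.96 and 8.49 (8.24 ± 0.873). Replicate 1 was the lowest there. The other 4 lay 184 to 619 kb away, with mean fold enrichments of 5.93 to 7.56, 3 of them in 2 replicates. Their nearest gene spans of any type were noncoding or pseudogene loci. Without replicate 3, ISL1 had 3 shared regions, and without replicate 2 it had 2.

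EBF1, a helix-loop-helix factor that in the mouse acts in differentiating neurons of the direct pathway, had 8 regions and none recurred. Replicate 1 gave 3 of them, replicate 3 gave 5 and replicate 2 gave 0. Inside the gene there were 5, and the other 3 lay 212 to 243 kb beyond the 3′ end. Fold enrichments ranged from 5.38 to 10.1 and −log10 q from 6.45 to 14.5, so 3 peaks at EBF1 reached a −log10 q of 10 or more without a counterpart in another list. Without replicate 1 there were 5 regions, and without replicate 3 there were 3. Its territory of 851 kb is similar to that of FOXP2 (805 kb), which had 4 regions and 2 of them shared.

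BCL11B, also called CTIP2, is a zinc finger factor that drives differentiation of medium spiny neurons in the mouse. It had the longest territory of the set, 1310 kb, and no shared region. Its only recurrent region, chr14:99274738-99274980, was 2.66 kb upstream of the start, with fold enrichments of 5.35 in replicate 1 and 10.2 in replicate 2 and no peak in replicate 3. A further region 2.75 kb beyond it had 9.45 in replicate 2 alone. The other 5 regions, 2 inside the gene and 3 downstream at 169 to 686 kb, were each seen once, with 4.84 to 7.44. Without replicate 3, the upstream region counted as shared. Without replicate 1, BCL11B had 4 regions.

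BCL11A, the zinc finger paralog also called CTIP1, had 0 regions in a territory of 210 kb. The nearest region, chr2:60214562-60215778, was shared, with fold enrichments of 15.3, 10.7 and 9.85 (12.0 ± 2.94), and replicate 1 was the highest. It lay 236 kb downstream of BCL11A and 187 kb from LOC124906010, an uncharacterised protein-coding locus beside the gene, to which it was assigned. When all uncharacterised loci (symbol LOC and a number) were left out of the annotation, a choice made after seeing the data, BCL11A gained 8 regions at 236 to 993 kb, 1 of them shared. The count of 0 thus depends on that locus, and the region is still far from the gene.

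ZNF503, also called NOLZ1, is a zinc finger repressor of the striatal primordium in the mouse. Of its 3 regions 2 were shared, the largest proportion among these genes. The stronger, chr10:75405083-75405519, was 3.38 kb upstream of the start, with fold enrichments of 10.7, 9.69 and 12.2 (10.8 ± 1.24). The other, chr10:75353023-75353342, lay inside the gene, with 8.58, 6.30 and 9.09 (7.99 ± 1.49). Both were lowest in replicate 2 and highest in replicate 3. Replicate 1 alone had a weak peak of 5.73 at 702 bp upstream of the start. Summits of the upstream regions fall in the span of ZNF503-AS2 and that of the inner region also in ZNF503-AS1, so with spans of any gene type ZNF503 kept 1 region.

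IKZF1 encodes Ikaros, a zinc finger factor known from lymphocyte development and, in the mouse, from striatal neurons. It had 0 regions in a territory of 194 kb. The nearest region of any kind was 290 kb away, inside ZPBP, and was seen in replicate 3 alone at 7.51. The nearest shared region was 836 kb away and nearest to VWC2, with fold enrichments of 15.3, 17.5 and 16.2 (16.4 ± 1.12). Peak numbers in the 3 lists run without a gap, so the lists show no missing lines.

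**Figure D2:**
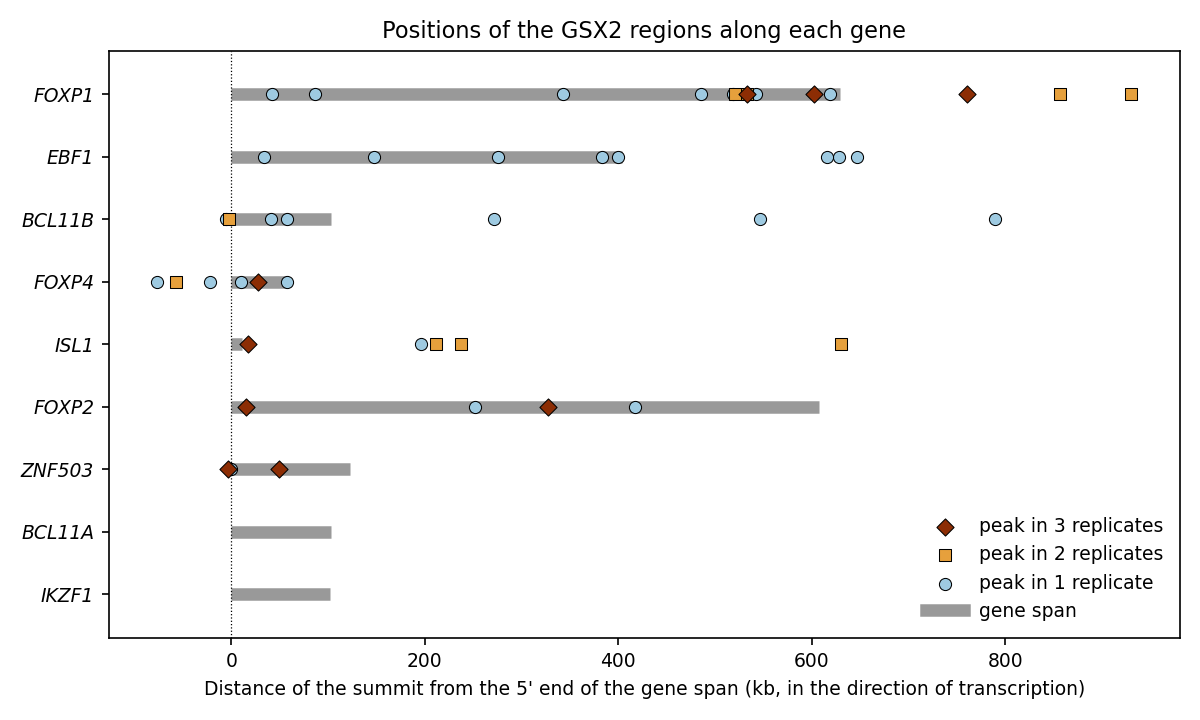
Position of each GSX2 summit (x axis, kb from the 5′ end of the gene span in the direction of transcription, linear) for the 9 genes, with the span as a grey bar and markers by number of replicates with a peak. FOXP1 regions gather in the 3′ part of the gene, ISL1 regions all lie downstream, and the spans of BCL11A and IKZF1 carry no marker.

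Ranked by the mean of their strongest shared region, the 5 genes ran FOXP4 (16.2), ZNF503 (10.8), FOXP1 (10.6), FOXP2 (10.2) and ISL1 (8.24). The replicate values of FOXP4 did not overlap those of ZNF503, and those of FOXP2 did not overlap those of ISL1. ZNF503, FOXP1 and FOXP2 overlapped as neighbours, so their order is not resolved by 3 replicates. The ranges of FOXP1 (8.64 to 13.4) and ISL1 (7.27 to 8.96) also overlapped. ISL1 was thus apart from FOXP2 and ZNF503 but not from FOXP1. Over the 9 shared regions the median coefficient of variation between replicates was 11.4%, against 19.5% for the other shared regions of the data. Among regions of 2 replicates the direction was reversed, with 21.1% over the 9 member regions and 14.6% over the other regions. Each member value rests on only 9 regions, and the differences were not tested.

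**Figure D3:**
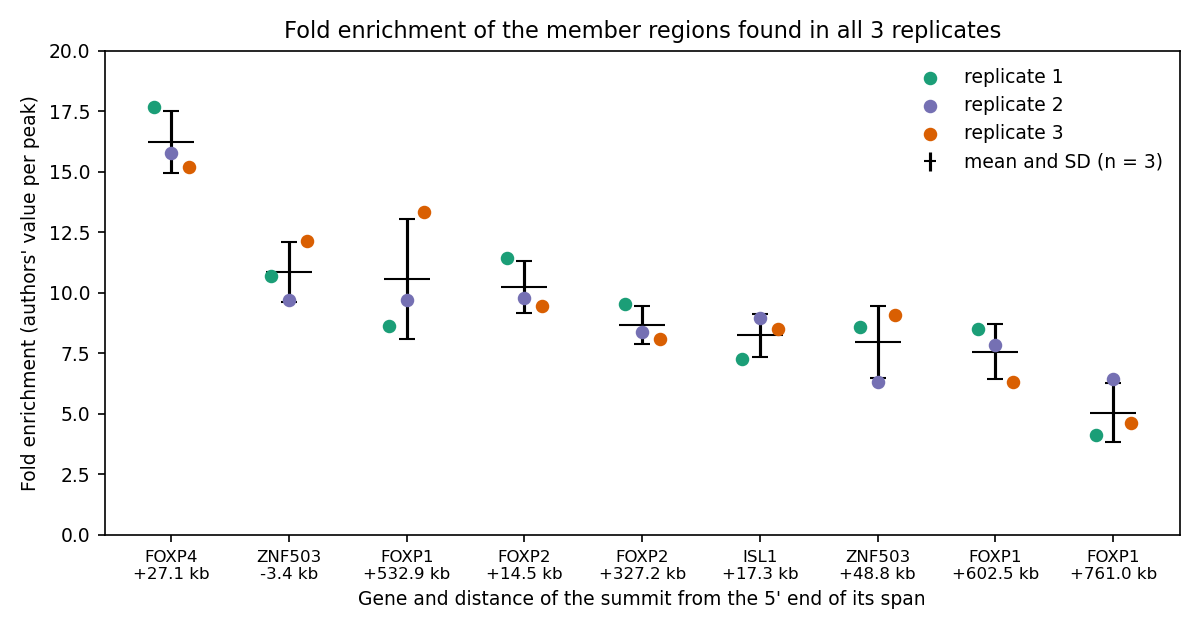
Fold enrichment (y axis, the authors' value per peak, from 0) in each replicate for the 9 member regions with a peak of all replicates, labelled by gene and by distance from the 5′ end of its span; horizontal bars are means and error bars SDs (n = 3). The FOXP4 region stands above the others in every replicate, with values of 15.2 to 17.7.

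Recurrence of the member regions was close to that of the whole data. Of the 47, 9 were shared (19.1%, 95% Wilson interval 10.4 to 32.5%), another 9 were in 2 replicates and 29 in 1. Over all 15743 regions, 22.5% were shared, a value inside that interval. These intervals cover counting error only. The shared member regions had a median mean fold enrichment of 8.67, against 9.49 in the other shared regions, and those of 1 replicate had 6.97 against 6.21. Peaks of shared member regions had a median −log10 q of 13.1, and 21 of 27 reached 10, while those of 1 replicate had a median of 7.56 and 6 of 29 reached 10. No test of these differences was made, since regions are not replicates. Matching −log10 q counts over all regions are not given here, so these counts cannot be read as particular to the 9 genes.

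**Figure D4:**
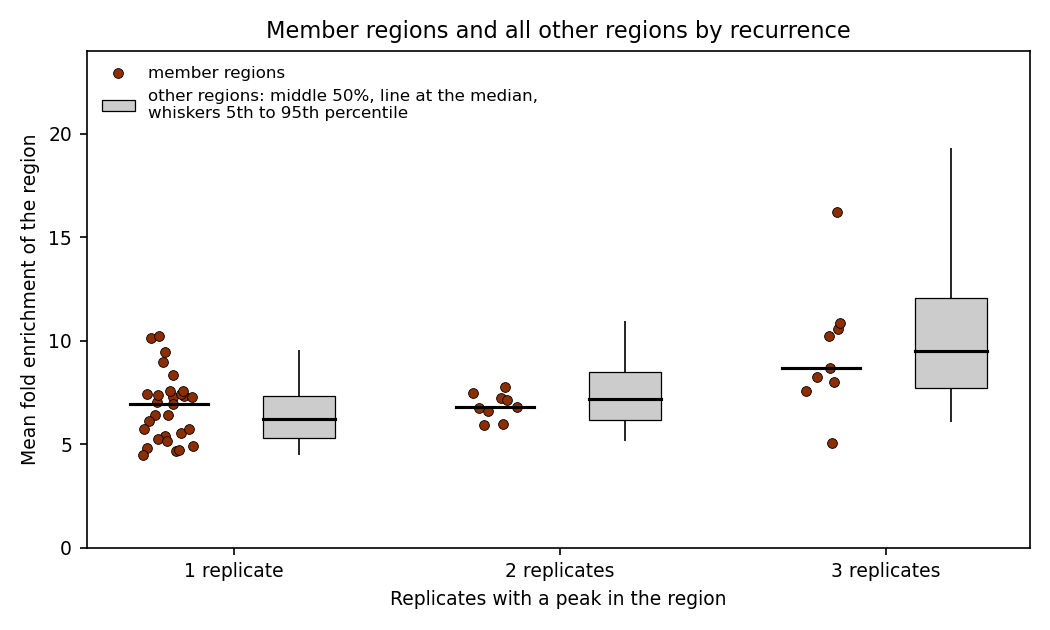
Mean fold enrichment of regions (y axis, from 0) by the number of replicates with a peak, with the 47 member regions as points and their median as a line, beside a box for all other regions (middle 50% and median, whiskers at the 5th and 95th percentiles). The FOXP4 region at 16.2 is the highest member point, and the median of shared member regions is 8.67 against 9.49 for the other shared regions.

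In position, 25 of the 47 lay inside a gene span (53.2%, 95% Wilson interval 39.2 to 66.7%), against 50.9% of all regions. Of the 9 shared regions, 6 were inside (66.7%, interval 35.4 to 87.9%), all of them in FOXP1, FOXP2, FOXP4 or ZNF503. Over all shared regions of the data the share inside was 51.3%, a value within that interval. The 22 regions outside were 0.702 to 686 kb away, with a median of 177 kb, against 65.7 kb over all regions outside spans. Territories, which bound these distances, had a median of 805 kb at the 9 genes and 56 kb over all genes. Only 2 of the 47 had a summit within 1 kb of a listed start of any gene (4.26%, interval 1.17 to 14.2%), against 10.8% of the 14991 regions on chromosomes that the promoter table covers. Within 2 kb there were 7 (14.9%) against 15.0%. The annotation used gives gene spans and starts without exons, so exonic and intronic positions were not separated.

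Of 10 paralogs of the 9 genes, 3 had a shared region, against 12.5% of all genes, and 6 had a region of any replicate, against 33.1%. There were 5 shared regions, and the paralogs' territories had a median of 106.5 kb. A region 20.3 kb from ZNF703, the sister gene of ZNF503, had fold enrichments of 14.4, 14.9 and 14.0 (14.4 ± 0.456). At IKZF2, an Ikaros family gene, the strongest lay 36.8 kb away and had 10.7, 6.16 and 12.0 (9.63 ± 3.07). At EBF3 it lay 7.02 kb away, with 9.15, 8.90 and 6.76 (8.27 ± 1.32). EBF1 and IKZF1 themselves had no shared region.

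Of 24 genes for receptors, enzymes and peptides of mature striatal neurons, 8 had a shared region (33.3%) and 17 a region of any replicate (70.8%). Over all genes these shares were 12.5% and 33.1%, and genes with territories of at least 159 kb had a shared region in 36.5%. The median territory of the 24 was 157 kb, so many of them fall below that limit and the 36.5% is not a matched background. Strongest was a region 57.5 kb from DRD2, the dopamine receptor gene of the indirect pathway (26.0, 21.5 and 18.9, 22.1 ± 3.57). A region inside the retinoic acid receptor gene RARB had 20.2, 9.43 and 22.2 (17.3 ± 6.88), with replicate 2 low. DRD1, the dopamine receptor gene of the direct pathway, had its shared region 228 kb away (13.5, 12.7 and 15.6, 13.9 ± 1.5). PDE10A, a phosphodiesterase gene of medium spiny neurons, had one 18.2 kb away (11.8, 12.1 and 14.8, 12.9 ± 1.68). All replicate values at DRD2 exceeded those of the FOXP4 region.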

How the data were processed

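Chromatin immunoprecipitation of FLAG-tagged GSX2 was sequenced in 3 replicates. The submitters' processing notes name hg38 as the build and, among tools, MACS3, Bowtie2, SAMtools, Trim Galore and deepTools. Versions, settings and any use of the input as control were not given in these sources. Peaks were called per replicate, and the authors deposited a list for each. Column 7 of the deposited lists is a linear ratio, the fold enrichment at the summit. The deposited −log10 p and −log10 q (every q at least 3 on this scale) give significance, and the deposited score, −log10 q times 10 cut to a whole number, was not used. A weak site can be missing from a list through depth, which is unknown, or through the threshold.

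Intervals with several lines kept the summit of highest fold enrichment, and 77, 64 and 82 intervals on unplaced or alternate contigs were left out. A region's fold enrichment is the highest per replicate, its position the median summit. A region counted for each gene to which 1 of its intervals was nearest, ties included. Territories were measured on a 1 kb grid up to the end of the last protein-coding gene of each chromosome, ties included. Merging and gene assignment were tested on simulated data. Analyses used Python 3.11.15, numpy 2.4.6, pandas 2.3.3, scipy 1.17.1 and matplotlib 3.10.9. All 9 genes matched the RefSeq tables (GRCh38.p14), with 22 promoter windows.

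All 9 genes were named, with their strongest region, any region within 1 kb of an end and any in the top 10% by fold enrichment; of 2 context lists, up to 4 genes with the strongest shared region. Members and lists were chosen with earlier results of these data known. The planned search for words under the peaks was limited to promoters. Alternatives were a −log10 q of at least 10, an overlap of 50%, spans of any gene type, a limit of 100 kb, the strongest summit by q, and leaving out each replicate.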

Additional observations from a re-analysis of the deposited data

How the results depend on the processing

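The 5 genes with a shared region had one under each alternative that could remove it, namely a −log10 q of at least 10, an overlap of 50%, spans of any gene type, the limit of 100 kb and the summit by q. Leaving out 1 replicate, so that 2 peaks suffice and no shared region can be lost, gave 35 to 41 member regions, 11 to 13 shared ones, 5 to 6 genes and a share of 29.3 to 36.1%; the share passed its interval without replicate 3 (36.1%), where fewer replicates were required. Peaks of −log10 q of at least 10 left 19 member regions, 6 of them shared, and spans of any gene type left 28, 7 of them shared. The share over all regions is given for the main setting only (22.5%). Whether it changed alike under these alternatives is not shown here. With uncharacterised loci left out, an alternative chosen after seeing the data, there were 55 regions, 10 shared, at 6 genes. The overlap of 50% and the summit by q changed no count, and the limit of 100 kb left 34 regions and 8 shared ones. The strongest shared region of ZNF503 had a mean of 7.99 with spans of any gene type, against 10.8, since the stronger one was then nearest to ZNF503-AS2. No paired analysis was possible because only the ChIP group has values. Unknown depth limits any reading of a missing peak, and the nearest gene need not be a target.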
